A study of Mus musculus with 7 samples.

Results

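The enzymes that build, lengthen and desaturate fatty acids were followed through a map of H3K79me2, the dimethylation of lysine 79 of histone H3, in mouse bone marrow-derived macrophages. The set holds 10 genes of that pathway: Acly, Acaca, Fasn, Scd1, Scd2, Elovl1, Elovl5, Elovl6, Fads1 and Fads2. A gene was counted as marked where a region of the read-count table overlapped its RefSeq span on mm10, and where several did, the region with the most counts on average represented it. By this rule 9 of the 10 genes were marked, with 26 regions out of 29397 in all, and Scd1 had none. Of all 21896 coding genes in the annotation, 9511 had a region.

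All groups came from marrow of C57BL/6 mice grown for 7 to 8 days with L929-conditioned medium as the source of the growth factor M-CSF. During that time 3 cultures received SGC0946 at 1 µM, which blocks DOT1L, the enzyme that methylates H3K79, and 3 received DMSO as control. The design text calls them biological replicates without saying whether they came from separate animals, so p-values measure the spread between these samples. The protocol speaks of marrow from WT and KO animals without assigning either to a sample, and age and sex are not given in the sources used here. An input sample is also named and was not used here.

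Fatty acid synthesis starts in the cytosol, where acetyl-CoA is made from citrate, carboxylated to malonyl-CoA and joined into palmitate. Elongases at the endoplasmic reticulum lengthen palmitate and dietary fatty acids, and desaturases put double bonds into them. Macrophages use the products for membranes, stored lipid and the precursors of lipid mediators. H3K79me2 lies over the transcribed part of active genes, beginning near the start site.

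Library totals were 16.7 to 19.5 M counts with DMSO and 2.95 to 3.13 M with SGC0946, so that the mean SGC0946 library held 17.1% of the mean DMSO library. Within a group, pairs of libraries differed by more than sampling noise, with chi-square per degree of freedom between 1.32 and 2.38. All 8 macrophage markers examined (Csf1r, Adgre1, Itgam, Cd68, Spi1, Mertk, Fcgr1 and Lyz2) had a region. Of 25 markers of other cell types, 3 had a region: Fabp4, with 116 to 123 counts per DMSO library and 16 to 22 per SGC0946 library, and Mpo and Klf1 with at most 12 counts in any library. Fabp4 was on the list as an adipocyte marker. The other adipocyte markers on it, Adipoq, Plin1 and Lep, had no region, and neither did the liver genes Alb, Apoa1 and Ttr.

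The marked part of these genes usually began close to the start site. RefSeq promoter windows (GRCm38.p6, the assembly of mm10) were at hand for 7 of the 10 genes: Acly, Acaca, Fasn, Elovl1, Elovl5, Elovl6 and Fads2. The 250 bases before the listed start are given for 4 of them, 5′ to 3′ on the gene's strand. Acly and Elovl5 are shown because their mark begins at the listed start, and Elovl6 and Acaca because the representing region lies away from it. Capitals mark matches on either strand to the GC box GGGCGG, the CCAAT box CCAAT or the E-box CACGTG, and a window without capitals holds none.
Acly, chr11:100528001-100528250, minus strand: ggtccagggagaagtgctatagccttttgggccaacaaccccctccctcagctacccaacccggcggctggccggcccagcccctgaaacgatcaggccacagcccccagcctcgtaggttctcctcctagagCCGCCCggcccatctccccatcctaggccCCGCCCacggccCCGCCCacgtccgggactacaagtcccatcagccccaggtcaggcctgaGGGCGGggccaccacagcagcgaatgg
Elovl5, chr9:77917115-77917364, plus strand: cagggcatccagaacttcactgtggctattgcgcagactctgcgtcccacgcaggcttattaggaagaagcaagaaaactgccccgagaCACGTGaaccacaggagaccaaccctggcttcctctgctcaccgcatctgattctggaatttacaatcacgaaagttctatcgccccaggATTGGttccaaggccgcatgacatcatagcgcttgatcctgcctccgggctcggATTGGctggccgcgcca
Elovl6, chr3:129532136-129532385, plus strand: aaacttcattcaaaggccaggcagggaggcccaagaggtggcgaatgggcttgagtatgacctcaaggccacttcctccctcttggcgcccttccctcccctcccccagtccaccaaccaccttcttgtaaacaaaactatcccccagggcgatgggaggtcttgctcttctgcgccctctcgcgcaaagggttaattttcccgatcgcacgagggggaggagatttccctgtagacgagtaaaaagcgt
Acaca, chr11:84195188-84195437, plus strand: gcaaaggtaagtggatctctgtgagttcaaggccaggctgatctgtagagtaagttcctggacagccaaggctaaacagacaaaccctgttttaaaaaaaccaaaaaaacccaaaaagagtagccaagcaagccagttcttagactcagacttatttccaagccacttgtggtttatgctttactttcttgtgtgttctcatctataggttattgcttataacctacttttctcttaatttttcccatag

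The region of Elovl5 began 11 bases before its listed start, that of Acly 72 bases after it, that of Fasn 416 bases after it and that of Fads2 694 bases after it. Among 6155 marked coding genes with a single listed start, 69.5% had a region that began within 1 kb of the start on either side. The Acaca region instead lay wholly before the listed start, from 15.2 to 1.2 kb upstream of it and still inside the RefSeq span of the gene. The span begins well before the listed start, so Acaca has further transcript starts that are not in the promoter table, and the region's distance from those was not measured. A region wholly before the listed start was found for 1.84% of the 6155 genes. A further Acaca region of 513 bp covered the listed start itself, and it had only 14 to 17 counts per DMSO library.

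The Acaca window was also the poorest in G and C among those of the members, at 39.2% against a median of 52.4% over 32851 promoter windows of the same length. The windows of Acly (68.8%), Fasn (69.2%) and Elovl1 (72.0% and 58.0% at its 2 listed starts) were richer. Elovl1 had 5 GC boxes at the first of its listed starts and 2 at the other, Acly 4 and Fads2 1. Fasn had 3 CCAAT boxes, of which 2 overlap each other, Elovl1 had 1 at its first start, and Elovl5 had 2 CCAAT boxes and 1 E-box. A GC box was held by 32.7% of all windows and by 58.1% of those of marked genes, a CCAAT box by 33.8% and 35.2%, and an E-box by 6.02% and 8.58%. Neither the sterol regulatory element searched as TCACNCCAC (1.05% of all windows) nor the LXR element known as DR4 (0.0152%) was found on either strand in the windows of the 7 genes, which says only that these letters are not there.

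**Figure D1:**
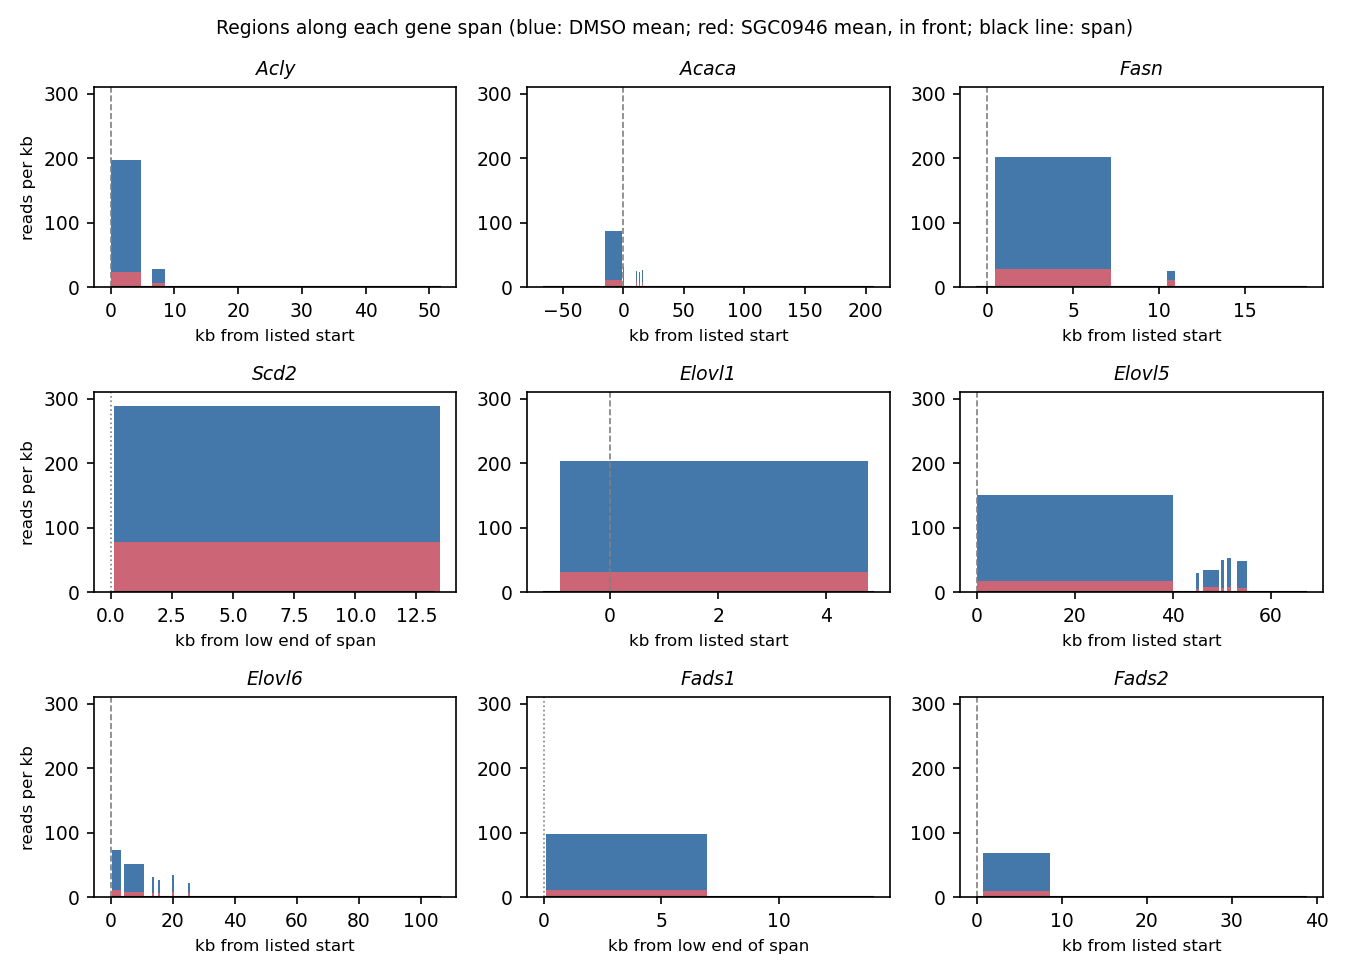
Regions of the table along the span of each marked gene. The x axis gives the distance in kb from the listed start in the direction of transcription, or, for Scd2 and Fads1, whose start is not in the promoter table, from the low-coordinate end of the span. The height is the mean number of reads per kb with DMSO (blue) and SGC0946 (red, drawn in front), and the black line is the gene span. Scd2 and Elovl1 are covered almost from end to end, and the Acaca region ends before the dashed line at the listed start.

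With DMSO, among the representing regions, the mark was densest on the desaturase gene Scd2, with 289 counts per kb (range of the 3 libraries 273 to 320). Next came Elovl1 with 203 (189 to 227), Fasn with 203 (190 to 224) and Acly with 198 (183 to 225), whose ranges overlap. Within each DMSO library Elovl1 was above Acly. Fasn was above both in DMSO replicates 1 and 2 and below both in replicate 3, so it has no fixed place among them. Elovl5 had 151 (141 to 164), Fads1 98.9 (91.7 to 112) and Acaca 87.1 (80.0 to 100). The ranges of Fads1 and Acaca overlap, but within each DMSO library Fads1 was above Acaca. Fads2 had 69.5 (61.2 to 76.2) and Elovl6 the lowest value of the 9, 52.1 (48.2 to 58.8). Scd2 stood above 95.1% of the regions that represent a marked coding gene, Fasn above 83.2%, Acaca above 41.8% and Elovl6 above 18.3%.

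The genes also differed in how much of their span was marked. Regions covered 98.8% of the span of Scd2 and 93.4% of that of Elovl1, against a median of 33.0% over 9511 marked coding genes. Elovl5 was covered to 70.4%, Fads1 to 48.9%, Fasn to 37.9%, Fads2 to 20.3%, Acly to 12.9%, Elovl6 to 11.0% and Acaca, whose span is 272 kb, to 6.3%. The annotation used gives spans without exons, so exonic and intronic parts were not separated. Each of the 9 representing regions overlapped a single coding gene, and that of Scd2 also overlapped the microRNA gene Mir5114, which lies inside Scd2.

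How much of the mark each enzyme gene kept under DOT1L inhibition was read from the SGC0946 and DMSO libraries. On unscaled counts, all 9 marked genes fell (edgeR quasi-likelihood test, adjusted p between 3.1e-181 for Elovl5 and 1.1e-56 for Elovl6), as did 99.7% of all 24895 regions tested and 99.8% of the regions representing a coding gene. No member rose, against 0.0201% of all regions and 0.0245% of those of coding genes. Together the 9 regions went from 16120 ± 1487 to 2602 ± 88.9 counts (SD, n = 3), which is 16.1% of the DMSO level (exact 2-sided permutation p = 0.1, the lowest value possible for 3 libraries against 3). Fewer reads per library and less mark per nucleosome cannot be told apart from these counts, because the labels name no spike-in. The share of the library's counts is therefore given as well, as CPM, the count scaled to the library's total over all 29397 regions.

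**Figure D2:**
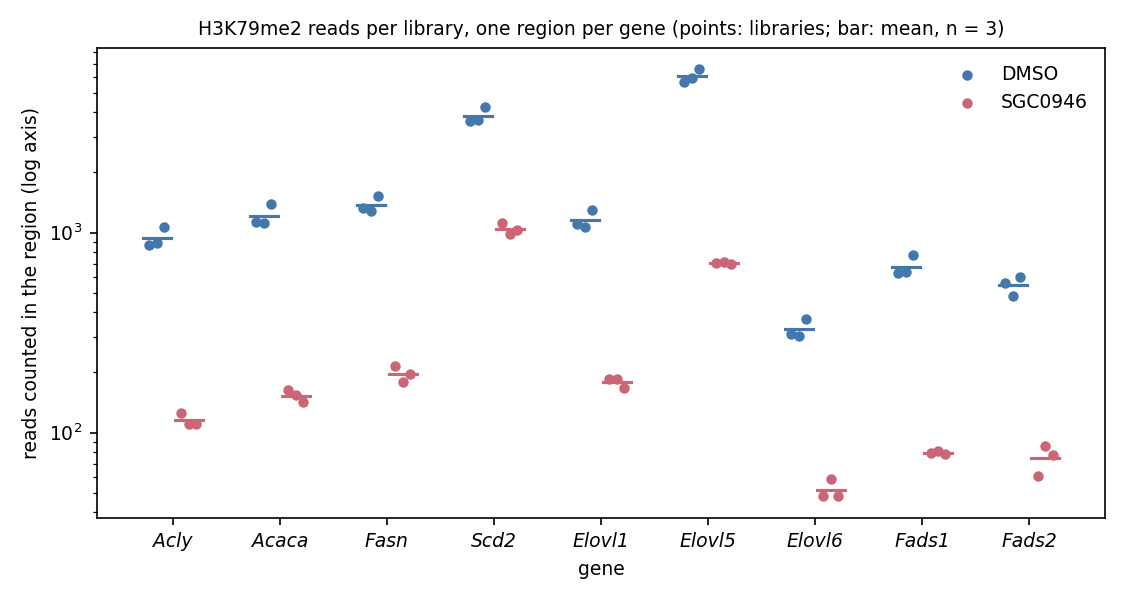
Reads counted in the representing region of each gene (y axis, log scale) for 3 DMSO libraries (blue) and 3 SGC0946 libraries (red), with bars at the means. The groups do not overlap for any of the 9 genes, and the gap is narrowest for Scd2, where the lowest DMSO library held 3.23 times the highest SGC0946 library. On these unscaled counts 99.7% of all regions tested fell, so the separation is not particular to these genes.

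Acly encodes ATP citrate lyase, which splits citrate to give cytosolic acetyl-CoA. Its region (chromosome 11, 100523170 to 100527928) had 870, 889 and 1069 counts in the DMSO libraries and 126, 110 and 110 in the SGC0946 libraries. Every SGC0946 value was below every DMSO value by at least 6.9 times. The region kept 12.2% of its counts, a log2 fold change of -3.03 ± 0.14 (SE), and its share fell by 0.48 on the log2 scale (SE 0.09, adjusted p = 6.0e-06, edgeR). Acaca encodes acetyl-CoA carboxylase alpha, which makes malonyl-CoA. Its region (chromosome 11, 84180266 to 84194241) had 1134, 1118 and 1398 counts with DMSO and 163, 155 and 142 with SGC0946. It kept 12.6%, close to Acly, and its share fell by 0.44 on the log2 scale (SE 0.08, adjusted p = 4.42e-06, edgeR).

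Fasn encodes fatty acid synthase, the multi-enzyme chain that joins malonyl units into palmitate. Its region (chromosome 11, 120817350 to 120824131) had 1323, 1286 and 1518 counts with DMSO and 216, 179 and 196 with SGC0946, and kept 14.3%. In CPM it went from 77.5 ± 1.70 to 65.0 ± 4.87 (SD, n = 3), without overlap between the groups. The share fell by 0.25 on the log2 scale (SE 0.07, adjusted p = 0.00365, edgeR). That call was lost without SGC0946 replicate 2 (adjusted p = 0.0739) and with TMM factors (0.315), DESeq2 size factors (0.416) or the DESeq2 Wald test (0.442).

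Within a library, the ratio of 2 regions does not depend on how libraries are scaled. The log2 ratio of Acaca to Acly was 0.37 ± 0.03 with DMSO and 0.41 ± 0.07 with SGC0946, and that of Fasn to Acaca 0.18 ± 0.05 and 0.36 ± 0.14 (SD, n = 3). The values of the groups overlapped for both ratios (exact 2-sided permutation p = 0.6 and 0.2). For Fasn to Acly, a pair added after the values were seen, the ratio went from 0.55 ± 0.05 to 0.77 ± 0.07 without overlap, 1.17 times higher with SGC0946 (exact 2-sided permutation p = 0.1, the smallest possible).

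Scd2 went apart from the other members. It encodes a stearoyl-CoA desaturase, which puts the double bond into stearate and palmitate to make oleate and palmitoleate. Its region (chromosome 19, 44293828 to 44307137) had 3629, 3642 and 4256 counts with DMSO and 1122, 989 and 1025 with SGC0946, so that it kept 27.2% (log2 fold change -1.88 ± 0.10 SE). Its CPM were 217, 214 and 218 with DMSO and 358, 329 and 347 with SGC0946. The groups did not overlap, and the share rose by log2 0.67 ± 0.04 (SE, adjusted p = 5.0e-21, edgeR), while unscaled counts fell.

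Among coding-gene regions averaging 50 counts or more, 96.9% kept less than Scd2. Scd2 made up 23.8 ± 0.085% of the counts of the 9 members with DMSO and 40.2 ± 1.4% with SGC0946 (SD, n = 3). Its log2 ratio to the summed counts of the other 8 went from -1.68 ± 0.0067 to -0.58 ± 0.09, which is 2.14 times higher (exact 2-sided permutation p = 0.1, the smallest possible). This ratio was chosen after the values were seen. Together the 9 members held 0.0908 ± 0.00054% of the library with DMSO and 0.0858 ± 0.00067% with SGC0946 (exact 2-sided permutation p = 0.1). Without Scd2, a sum that was not planned, the members kept 12.7%. Their share of the library went from 0.0692 ± 0.00036% to 0.0514 ± 0.00084% (exact 2-sided permutation p = 0.1). Elovl5 had the most counts among these 8, with a DMSO mean of 6039, and weighs most in that sum.

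Its neighbour Scd1, the main desaturase of liver and fat, had no region over its span (chromosome 19, 44394450 to 44407709). The nearest regions were that of Scd2 itself, 87.3 kb away, and that of Ndufb8, 145 kb away on the other side. Scd3 and Scd4 had no region either. The table gives no counts outside its regions, so the ratio of Scd2 to Scd1 could not be formed, and whether Scd1 holds a low level of the mark was not measured.

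**Figure D3:**
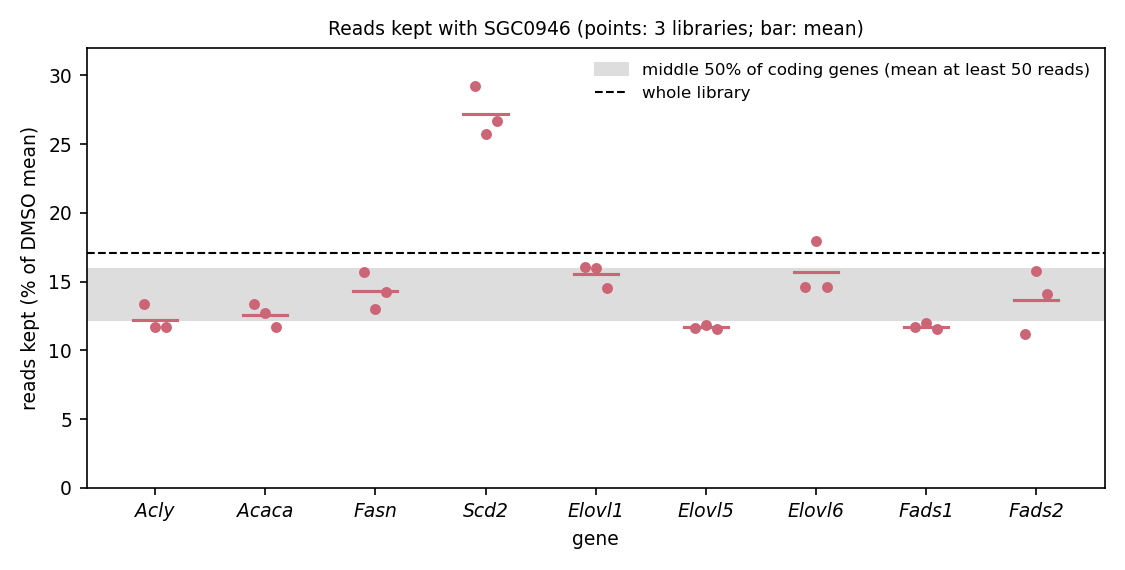
Reads kept with SGC0946 as a percentage of the DMSO mean (y axis) for the representing region of each gene. Points are the 3 SGC0946 libraries, bars their means, the dashed line is the whole library (17.1%) and the grey band is the middle 50% of coding genes with a mean of at least 50 counts. Scd2 at 27.2% is above the dashed line in all 3 libraries, and the means of the other 8 genes lie between 11.7% and 15.7%.

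The 3 elongase genes did not all keep the same part. Elovl5, which lengthens polyunsaturated fatty acids, carried the longest marked region of the set, 40.0 kb (chromosome 9, 77917354 to 77957317). It had 5632, 5919 and 6567 counts with DMSO and 703, 714 and 699 with SGC0946, and kept 11.7%, the lowest value of the 9. Its share fell by 0.55 on the log2 scale (SE 0.05, adjusted p = 1.73e-16, edgeR). Elovl1, which makes saturated and monounsaturated fatty acids of very long chain, had a region of 5.68 kb (chromosome 4, 118427175 to 118432854). Its counts were 1103, 1073 and 1291 with DMSO and 186, 185 and 168 with SGC0946, so that it kept 15.5%. The CPM of the groups, 65.1 ± 1.66 and 59.3 ± 2.32 (SD, n = 3), did not overlap, but its share did not pass the test (log2 -0.13 ± 0.08 SE, adjusted p = 0.197, edgeR).

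Elovl6, which lengthens palmitate to stearate, had its counts spread over 6 regions, with 52.7% of them in the representing one. That region (chromosome 3, 129536747 to 129543073) had 311, 305 and 372 counts with DMSO and 48, 59 and 48 with SGC0946. It kept 15.7%, its CPM overlapped between the groups, and its share did not pass the test (log2 -0.12 ± 0.13 SE, adjusted p = 0.577, edgeR). This region began 4.36 kb after the listed start, which was so for few genes: 8.43% of the 6155 had a region that began more than 4 kb downstream. A shorter and denser Elovl6 region, with 73.7 counts per kb with DMSO, lay nearer, from 296 bases after the start (chromosome 3, 129532682 to 129535774). It had 209, 240 and 235 counts with DMSO and 35, 33 and 41 with SGC0946 and kept 15.9%, close to the other.

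Among ratios between the elongase genes, those that include Elovl5 changed most between the groups. The log2 ratio of Elovl5 to Elovl1 went from 2.39 ± 0.07 to 1.97 ± 0.07, and that of Elovl6 to Elovl5 from -4.20 ± 0.07 to -3.78 ± 0.16 (SD, n = 3). For both ratios the groups did not overlap (exact 2-sided permutation p = 0.1, the smallest possible; 0.3 after Benjamini-Hochberg adjustment over 6 ratios). The ratio of Elovl6 to Elovl1 was -1.81 ± 0.02 and -1.80 ± 0.15 (exact 2-sided permutation p = 0.8). This depended on the choice of region. With all regions of each gene summed, the log2 change of this ratio was 0.112 (exact 2-sided permutation p = 0.1, the smallest possible).

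**Figure D4:**
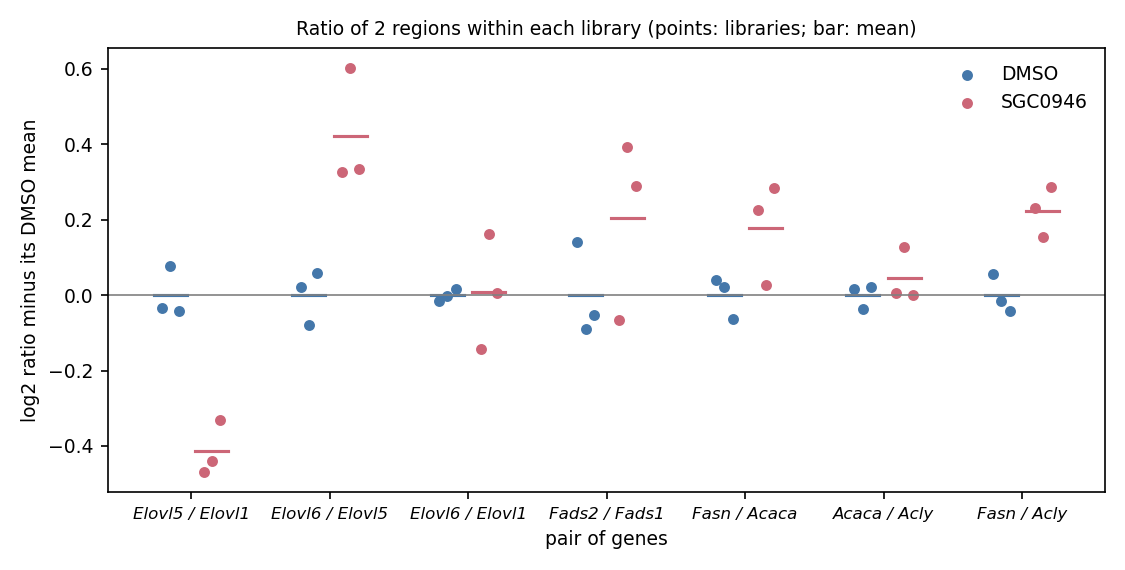
Log2 ratio of 2 regions within each library, with the mean of the DMSO libraries set to 0 (y axis), for 7 pairs of genes, of which Fasn to Acly was added after the values were seen. Points are libraries (blue DMSO, red SGC0946) and bars are means. Elovl5 to Elovl1 is lower and Elovl6 to Elovl5 and Fasn to Acly are higher in all 3 SGC0946 libraries, and the groups overlap in the other 4 pairs.

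Fads1 and Fads2 encode the front-end desaturases that act in turn on polyunsaturated fatty acids on the way to arachidonic acid. The Fads1 region (chromosome 19, 10182964 to 10189803) had 627, 633 and 769 counts with DMSO and 79, 81 and 78 with SGC0946. It kept 11.7%, and its share fell by 0.54 on the log2 scale (SE 0.10, adjusted p = 1.26e-05, edgeR). The Fads2 region (chromosome 19, 10092948 to 10100809) had 559, 481 and 599 counts with DMSO and 61, 86 and 77 with SGC0946, and kept 13.7%. Its CPM overlapped between the groups, since SGC0946 replicate 2 with 28.6 lay above DMSO replicate 2 with 28.3. The share fell by 0.32 on the log2 scale (SE 0.12, adjusted p = 0.0265, edgeR), a call that was lost without SGC0946 replicate 1 (0.443) or DMSO replicate 1 (0.0654), with TMM factors (0.257), with DESeq2 size factors (0.301) and with the DESeq2 Wald test (0.462).

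The log2 ratio of Fads2 to Fads1 was -0.31 ± 0.12 with DMSO and -0.10 ± 0.24 with SGC0946 (SD, n = 3), and the groups overlapped (exact 2-sided permutation p = 0.3). Their neighbour Fads3 had no region.

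In share of the library, Scd2 rose, 6 members fell (Acly, Acaca, Fasn, Elovl5, Fads1 and Fads2) and Elovl1 and Elovl6 passed in neither direction. Of the regions representing coding genes, 9.69% rose and 49.0% fell, and of all 23367 regions tested 6.16% rose and 23.3% fell. The median log2 fold change of the share was -0.32 over the 9 genes and -0.28 over the coding-gene regions, and it was -0.32 over those averaging 50 counts or more, of which 56.7% fell and 9.76% rose. The share of members that fell was thus near that of well-covered genes in general. The members kept a median of 13.7%, as did those genes (13.7%).

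How many genes passed depended on the scaling. With TMM factors or DESeq2 size factors 4 genes fell (Acly, Acaca, Elovl5 and Fads1) and Scd2 rose. Scaled on the 25% of regions with the fewest counts per kb, 8 fell and none rose, and Scd2 was at -0.0115 (adjusted p = 0.964, edgeR). Of all 23367 regions tested, 3524 fell and 1958 rose with TMM factors, and 3218 fell and 1988 rose with DESeq2 size factors. With scaling on the sparse regions 13467 fell and 351 rose. These scalings moved the median of all regions from -0.09 to 0.05, 0.06 and -0.80. A scaling shifts all regions by nearly the same amount, so a gene's distance from that median hardly depends on it and is no sign of stability. Scd2 lay 0.76 above the median on library totals.

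**Figure D5:**
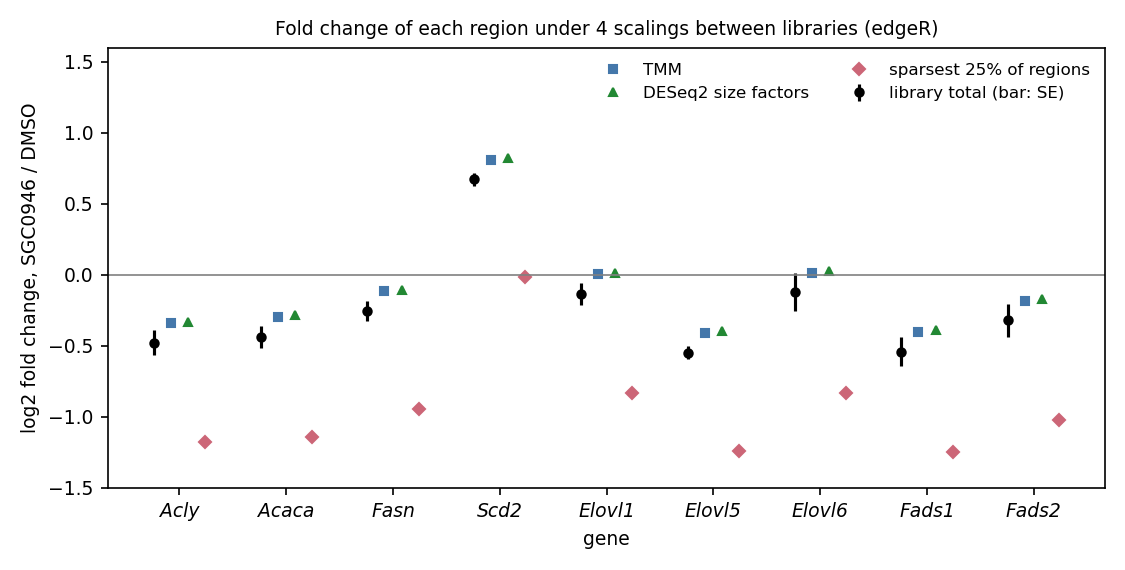
Log2 fold change of the representing region of each gene, SGC0946 over DMSO (y axis), under 4 scalings between libraries: library totals (black, with SE), TMM factors (blue), DESeq2 size factors (green) and the sparsest 25% of regions (red). Scaling on sparse regions moves all 9 genes down together. Scd2 is the highest gene under each scaling, which is no sign of stability, since a scaling shifts all genes by nearly the same amount.

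Counts left after SGC0946 were low on several genes. The sparsest 25% of regions had 6.13 ± 1.17 counts per kb with SGC0946 and 21.8 ± 1.89 with DMSO (SD, n = 3). With SGC0946, the regions of Elovl6 had 8.17 counts per kb, Fads2 9.50, Acaca 11.0, Fads1 11.6, Elovl5 17.6, Acly 24.2, Fasn 29.1, Elovl1 31.6 and Scd2 78.5. What part of the kept counts on the low genes is background was not tested.

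The other 17 regions, spread over Acly, Acaca, Fasn, Elovl5 and Elovl6, were 500 to 3267 bp long, with means of 11.3 to 228 counts and 22.7 to 73.7 counts per kb with DMSO. The densest of them is the Elovl6 region near the start, described above. With SGC0946 they had 5.31 to 12 counts per kb, and they kept 13.5% to 46.2%. All 15 of those tested on unscaled counts fell. In share 1 of 13 tested passed, a rise of a 500 bp region of Fasn 10.5 kb after its listed start, with 11, 14 and 14 counts with DMSO and 9, 6 and 3 with SGC0946 (adjusted p = 0.0226, edgeR). It is named because of its value.

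Of 37 further genes of fatty acid supply, synthesis, elongation, desaturation, activation and control, 22 had a region. All 22 fell on unscaled counts, and in share 1 rose, 11 fell and 10 did not pass, with a median log2 of -0.28. Of the regions representing coding genes, 99.8% fell on unscaled counts. In share 49.0% of them fell and 9.69% rose, with a median log2 of -0.28. The part of the list that fell was thus near that of coding genes in general. All 6 genes of the elongation cycle that the ELOVL enzymes feed into (Hsd17b12, Hacd1, Hacd2, Hacd3, Hacd4 and Tecr) and all 4 of mitochondrial fatty acid synthesis (Mcat, Oxsm, Mecr and Cbr4) had a region, that of Oxsm being shared with Ngly1. Some of these regions held few counts, with DMSO means of 22 for Hacd1 and Cbr4 and 58 for Mcat. For comparison, 9511 of all 21896 coding genes had a region. Of the other elongase genes, Elovl2, Elovl3, Elovl4 and Elovl7 had none. Slc25a1, the citrate carrier that supplies Acly, Acss2, which makes acetyl-CoA from acetate, malic enzyme Me1 and Acacb, the carboxylase of the mitochondrial surface, had none either.

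The gene that rose in share was Acsl4, an acyl-CoA synthetase that prefers arachidonic acid. It had 5722, 6277 and 6897 counts with DMSO and 1342, 1205 and 1201 with SGC0946, kept 19.8% and rose by log2 0.22 ± 0.04 (SE, adjusted p = 2.46e-05, edgeR). The largest falls in share were those of Aacs, acetoacetyl-CoA synthetase, with 10.1% kept (log2 -0.76), of the lipogenic transcription factor gene Srebf1 with 10.3% (-0.73) and of Tecr, the reductase of the last elongation step, with 10.5% (-0.70). Their adjusted p-values were 5.48e-15, 4.97e-19 and 3.98e-16 (edgeR). The smallest falls that passed were those of Degs1, a sphingolipid desaturase, with 14.8% kept (log2 -0.21, adjusted p = 0.0138) and of Hsd17b12, the reductase of the elongation cycle's ketone step, with 13.7% (log2 -0.31, adjusted p = 1.75e-09).

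Genes with the most similar profile were sought over the 6 libraries by Euclidean distance in log2(CPM per kb + 0.1), among 7030 other coding-gene regions averaging 50 counts or more. Density and percentage kept come from the same counts, so likeness in both follows from the search. Nearest to Scd2 were Prdx1, a peroxiredoxin (distance 0.0831, 27.4% kept), Atp6v1c1, a subunit of the vacuolar proton pump (0.0836, 27.0% kept), and Arrb2, an arrestin (0.0984, 27.5% kept). Nearest to Fasn were Arhgap19 (distance 0.12, 14.9% kept), the proteasome gene Psmd4 (0.128, 13.7%) and Rprd2 (0.142, 14.9%). Over the 9 members the density with DMSO and the percentage kept had a Spearman rho of 0.25, and over the 8 without Scd2 of -0.0714, both given as descriptions over regions that share the same libraries.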

How the data were processed

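H3K79me2 ChIP-seq libraries of 3 DMSO and 3 SGC0946 cultures were analysed as the read counts per region that the authors deposited. The tools listed per the submitters' processing notes are ChIPseeker 1.20.0, HOMER 4.11.1, HISAT2, R 3.6.3 and bedtools 2.27.0, and the build is mm10. The calling of regions, any pooling of samples for it and the treatment of duplicate reads, each of which could change the counts, are not given in the sources used here. Starts were read as zero-based and are printed 1-based.

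Regions were joined to RefSeq spans of GRCm38.p6 (Python 3.11.15, pandas 2.3.3, numpy 2.4.6). All regions were fitted together in R 4.3.3 by edgeR 4.0.16 (quasi-likelihood test, filterByExpr, Benjamini-Hochberg over all tested regions, threshold 0.05). Library totals were used for shares and equal library sizes for unscaled counts. Both fits were also run on simulated counts. For the unscaled fit the simulated libraries all had about the same depth, so a fall of the whole library was not covered. The SE is the size of the log2 change divided by the root of F. Percentages kept are ratios of mean unscaled counts. DESeq2 1.42.0 served as an alternative, with other scalings, no filter, summed regions, a replicate block and left-out libraries. Ratios used exact permutation tests. Figures were drawn with matplotlib 3.10.9. Named genes were all members, of the pathway list the 3 highest and 3 lowest past the threshold in share, and the 3 most similar to Scd2 and to Fasn. The members and lists were chosen with earlier results of these data known.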

Additional observations from a re-analysis of the deposited data

How the results depend on the processing

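All 9 marked genes fell on unscaled counts under every alternative run, including the DESeq2 Wald test and each left-out library, and none rose. So did most regions in all: 27167 of 29397 in the DESeq2 Wald test and 24809 of 24895 with a replicate block. In share of the library, 5 to 6 of the 9 fell and 1 rose with a library left out, 4 fell with TMM factors, DESeq2 size factors or the DESeq2 Wald test, and 8 fell and 0 rose with scaling on the sparsest 25% of regions, where Scd2 was at -0.0115. Over all regions, 4595 to 5587 fell and 918 to 2155 rose with a library left out, of 13526 to 28733 tested. In the DESeq2 Wald test 2831 of 29397 fell and 2506 rose. Elovl1 and Elovl6, which passed in neither direction on library totals, were at 0.0031 and 0.016 with TMM factors and at 0.015 and 0.028 with DESeq2 size factors. The log2 change of the Elovl6 to Elovl1 ratio was 0.0087 with all libraries. It ranged from -0.0687 to 0.0841 with a library left out and was -0.0687 without SGC0946 replicate 2. With all regions of each gene summed, the change of that ratio was 0.112 (exact 2-sided permutation p = 0.1). In the pathway list, 2 genes rose with TMM factors, 2 rose and 6 fell with DESeq2 size factors, 7 fell with the DESeq2 Wald test, and 19 fell and 0 rose with scaling on the sparse regions, against 11 and 1. The sparse and size-factor values of that list were added after seeing the data. Of all regions called, 20.9% were rises on library totals, 33.8% without a filter, 35.7% with TMM, 47.0% in the DESeq2 Wald test, 38.2% by DESeq2 size factors, 31.9% without SGC0946 replicate 3 and 2.54% with scaling on the sparse regions. The cause of these shifts was not tested.

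Libraries share replicate numbers across groups, and whether equal numbers mean a shared animal or preparation is not stated. Deviations of same-numbered libraries correlated at 0.01, -0.11 and -0.013 over 11055 regions. Those of unlike-numbered libraries correlated at -0.099 to 0.103. Such correlations cannot show whether the cultures were paired. With the replicate block 6 members fell and 1 rose, as without it, and 5202 regions fell in all against 5439. SGC0946 libraries held under 100 counts on Elovl6, Fads1 and Fads2, which limits those values most.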
